A study of Mus musculus with 38 samples.

Results

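Vessels of mice returned to normal oxygen for 3 days after chronic hypoxia were set against vessels of mice sampled at the end of the hypoxia. The comparison rests on the 4 arrays, of 38 in the study, that hold a day 3 animal in one colour and a hypoxia animal in the other, chosen by their titles alone. On 2 of them, called H_N3 1 and H_N3 2, hypoxia was labelled with Cy3 and day 3 with Cy5, and on the other 2, called N3_H 1 and N3_H 2, the dyes were exchanged. The arrays have 76 channels for 76 animals, 1 animal in each, so these 4 arrays compare 4 day 3 mice with 4 hypoxia mice.

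The study followed small lung vessels through chronic hypoxia and its reversal by hybridising the conditions against each other in a loop with exchanged dyes. C57BL/6J mice aged 12 to 18 weeks spent 21 days at an inspired oxygen fraction of 0.21 (normoxia, 8 animals) or 0.10 (hypoxia, 23 animals), or followed the hypoxia with normoxia for 1 day (11 animals), 3 days (12), 7 days (12) or 14 days (10). All day 3 animals had thus been through the same hypoxia as the animals they were compared with. Lung vessels with an outer diameter from 50 to 100 µm were dissected by laser from 10 µm sections stained for nuclei, a procedure that can carry along neighbouring tissue, and the total RNA was amplified before labelling.

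Sustained low oxygen narrows and thickens the small pulmonary arteries: smooth muscle extends into vessels that normally have little of it, matrix accumulates in the wall, and pressure in the lung circulation rises. In rodents much of this is undone once normal oxygen returns, through loss of muscle cells, breakdown of matrix and relaxation of tone, while the raised number of red cells also declines. The early days of return are the stage at which such changes would begin.

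The deposited value of a feature is the log ratio of the 2 channels of an array. Neither its base nor its direction is stated, so it was read as Cy5 over Cy3, the convention of limma, which the submitters' processing notes name. That makes the direction likely but not settled, and the opposite reading would turn every sign given here. All differences below are log ratios of day 3 minus hypoxia, positive where day 3 was higher, after the dye effect of each gene was removed. For the size of a difference, folds are given for both common bases. A log ratio gives no level, so the label of lung vasculature could not be checked against the presence of endothelial or smooth muscle markers. In such bulk samples fewer cells of a type and less RNA per cell cannot be told apart.

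Of 30653 entries, 19087 of them named genes (features of a gene averaged) and 11566 features without a single gene name, 4 differed between day 3 and hypoxia at an adjusted p under 0.05 (limma over all 38 arrays, Benjamini-Hochberg), which is 0.013%. The 2 named ones were Bloc1s4, which fell, and Vwa8, which rose. Before adjustment 2827 entries lay under p 0.05, or 9.22% of all, with 1335 higher (4.36%) and 1492 lower (4.87%). Where nothing differs, about 1533 entries would lie there. Yet 2792 (9.11%) also lay there when the direct arrays were set against the rest of the loop, 2 estimates of this same difference. The count alone therefore does not show change at day 3.

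The promoter letters of both named genes are shown because these are the calls on which the comparison turns and because the study varies oxygen: they were searched for ACGTG and GCGTG, the core letters bound by hypoxia inducible factors, on both strands. The letters come from RefSeq, build GRCm38.p6, read 5′ to 3′ on the strand of the gene up to the base before its start, with the match in capitals. The build of the array's probes is not given in the sources used here.

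Bloc1s4, chr5:36748680-36748929, minus strand: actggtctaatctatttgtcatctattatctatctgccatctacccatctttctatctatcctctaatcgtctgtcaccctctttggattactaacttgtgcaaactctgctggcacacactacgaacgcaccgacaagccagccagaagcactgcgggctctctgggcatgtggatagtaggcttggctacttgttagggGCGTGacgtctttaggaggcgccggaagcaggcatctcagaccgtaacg

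Vwa8, chr14:78848928-78849057, plus strand: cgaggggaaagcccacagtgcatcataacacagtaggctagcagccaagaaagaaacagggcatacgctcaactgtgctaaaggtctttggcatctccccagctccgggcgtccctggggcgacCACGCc

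The 250 bases before Bloc1s4, a protein-coding gene at positions 36747374 to 36748679 of chromosome 5, held 1 match, GCGTG, beginning 49 bases before the gene. The window of Vwa8, on chromosome 14 from 78849058 to 79202310, covers 130 bases ahead of the gene record and held 1 match, GCGTG on the opposite strand, 6 bases before the gene. Either core occurs in 38.6% of the promoters of 32851 genes in windows of 250 bases and in 20.6% in windows of 130 bases. Matches this frequent describe the letters only.

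Bloc1s4 encodes a subunit of BLOC-1, a complex that sorts cargo from endosomes to lysosome-related organelles such as platelet dense granules and melanosomes. On the 4 direct arrays its log ratio was -0.320 on H_N3 1, -0.117 on H_N3 2, -0.0707 on N3_H 1 and -0.159 on N3_H 2. All 4 lay below 0, in both dye orientations, and H_N3 1 lay lowest. In the fit over 38 arrays day 3 stood at -0.178 ± 0.0299 (SE, adjusted p = 0.0178, limma), a fall by 1.51-fold if the base is 10 and by 1.13-fold if it is 2.

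The other day 3 animals, hybridised against days 1 and 7, gave Bloc1s4 the same direction. Their arrays are part of the fit that called the gene, so this is not separate support. Against day 1 its log ratio was -0.0659 ± 0.0315 (SD, n = 4) and against day 7 -0.193 ± 0.131 (SD, n = 4), so that the day 3 channel was the lower one on all 12 arrays that hold a day 3 animal. The gene stood at -0.0763 against hypoxia after 1 day, -0.0317 after 7 days and -0.0389 after 14 days, none past the threshold. Its differences from day 1 (adjusted p = 0.809, limma) and from day 7 (adjusted p = 0.157) did not pass the threshold, while day 3 minus normoxia did, at -0.225 (adjusted p = 0.0131). Without array H_N3 1 the value of Bloc1s4 was -0.158 with an adjusted p of 0.118. One feature measured the gene.

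Vwa8 encodes a protein of mitochondria with an ATPase domain of the AAA family. It stood at 0.0695 on H_N3 1, 0.131 on H_N3 2, 0.0839 on N3_H 1 and 0.117 on N3_H 2. All 4 lay above 0, and H_N3 1 gave the smallest. The fit put Vwa8 at 0.0871 ± 0.0160 (SE, adjusted p = 0.0401, limma), a rise by 1.22-fold in base 10 or 1.06-fold in base 2.

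Vwa8 was the higher one in the day 3 channel on 10 of the 12 arrays with a day 3 animal. These 12 arrays are also part of the fit that called Vwa8. It differed from day 1 by 0.0561 ± 0.0631 (SD, n = 4) and from day 7 by 0.0425 ± 0.0601 (SD, n = 4), with 1 array below 0 in each set. Its value against hypoxia was 0.0131 after 1 day, 0.0493 after 7 days and 0.0370 after 14 days, none past the threshold. Of its 3 features 2 averaged 0.151 and 0.143 on the direct arrays and the third 0.00762. The call of Vwa8 held in 19 of 38 fits with 1 array left out and in 7 of 16 other settings. Without H_N3 1 the log ratio of Vwa8 was 0.0896 with an adjusted p of 0.118.

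**Figure D1:**
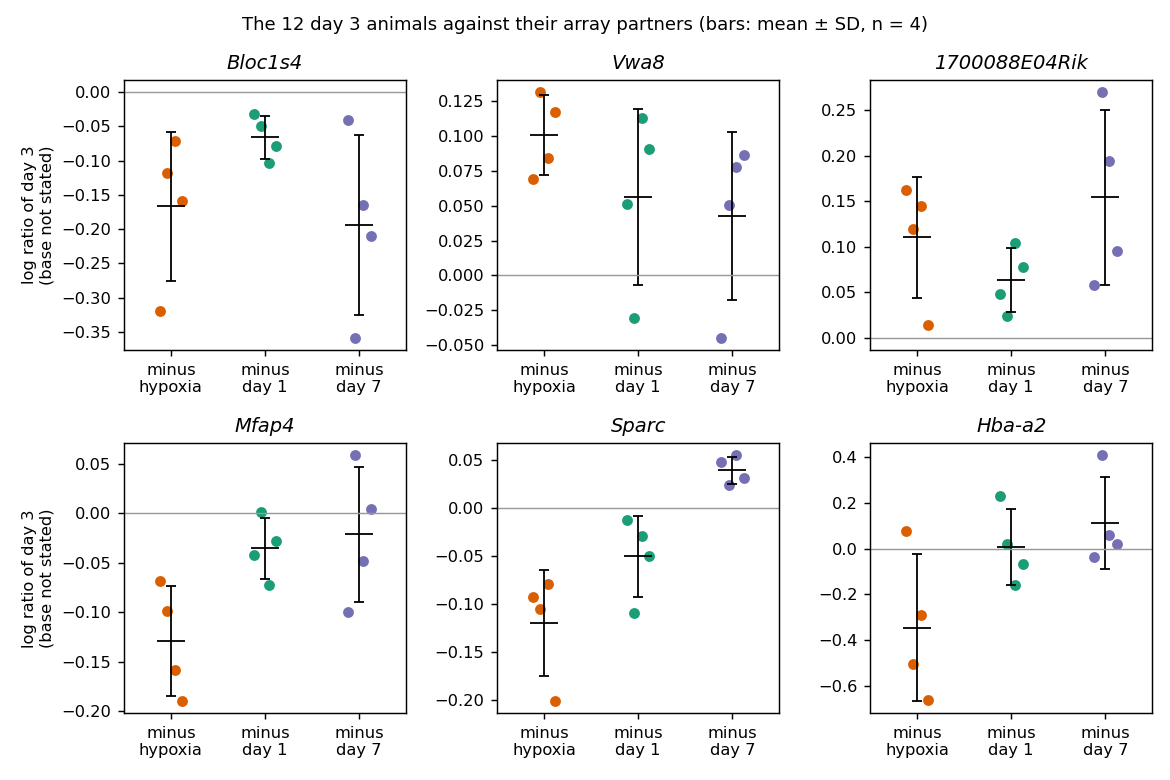
Log ratio of the day 3 animal against its partner on each of the 12 arrays that hold one, by partner (hypoxia, day 1, day 7), for 6 genes. Points are arrays with the dye effect removed, bars the mean ± SD of 4 arrays, and each panel has its own vertical scale. Bloc1s4 lies below 0 and 1700088E04Rik above 0 on all 12 arrays, while Sparc lies below hypoxia and day 1 and above day 7.

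The other 2 entries past the threshold are features without a gene name. One rose by a log ratio of 0.241 (adjusted p = 0.0418, limma) and was above 0 on all 4 direct arrays, between 0.0402 and 0.380. The other stood at -0.245 (adjusted p = 0.0178) and ranged from -0.540 to -0.144 on these arrays. They may be transcripts without a current name or control features, and nothing in the files says which.

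The companions of both called genes were looked at as lists. Of 26 genes of the BLOC complexes, the adaptor AP-3 and their partners, 10 were higher and 16 lower, with a median of -0.00616 beside -0.00108 for all entries, and Bloc1s4 was the only one past the threshold. Under an unadjusted p of 0.05 lay 4, Bloc1s4 included (15.4%, beside 9.22% of all entries), with Hps3, of the related complex BLOC-2, at 0.133 and Ap3m1, a subunit of AP-3, at -0.0800. Of 20 genes for mitochondrial AAA proteins and quality control 12 were higher and 8 lower, with a median of 0.00278. Dnm1l, which divides mitochondria, stood at -0.0531 and Ppargc1a, a regulator of mitochondrial biogenesis, at 0.0879, and only Vwa8 passed.

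Beyond the threshold, genes were ranked by p among those with one sign on all 4 direct arrays and in the other 34. The 2 conditions are not independent, since the dye effect removed from the direct arrays was fitted over all 38. Of 19087 named genes 1445 were higher and 1769 lower on all 4 direct arrays. Over all entries, the direct arrays alone and the other 34 gave the same sign for 51.2%. Both conditions were met by 1732 named genes, and the first 12 in each direction are described as values. Their adjusted p ran from 0.0178 to 0.180. One sign on all 4 direct arrays was shared by 5157 entries, 16.8% of all, with 2336 higher (7.62%) and 2821 lower (9.20%), so the sign alone is common, and the ranking chose these genes for their values.

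Among the higher ones, Trp53bp2, which encodes the p53-binding protein ASPP2, stood at 0.410 on H_N3 1, 0.164 on H_N3 2, 0.126 on N3_H 1 and 0.0677 on N3_H 2. All were above 0, and H_N3 1 was far higher than the others. The fit gave 0.166 ± 0.0323 (SE, adjusted p = 0.0640, limma), and without H_N3 1 Trp53bp2 stood at 0.132 (adjusted p = 0.234). Trp53inp1, a stress protein induced by p53, stood at 0.155, and Aatf, an antagonist of apoptosis, at 0.127. The full list of 19 apoptosis genes does not hold these 3. It had 14 higher and 5 lower members, with a median of 0.0183 and none past the threshold. The median of this list in the rest of the loop was -0.0154. Under an unadjusted p of 0.05 lay 1 member, a lower one (5.26%, beside 9.22% of all entries). Bcl2l1, which protects from cell death, stood at 0.0718 and Bak1, which opens the mitochondrial membrane, at -0.0684.

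Zranb1, a deubiquitinase, had the highest fitted value of the 24 genes at 0.228, of which H_N3 2 alone gave 0.585. Pglyrp1, a bactericidal protein of neutrophil granules, stood at 0.164 with 0.00687 on H_N3 1 and 0.317 on N3_H 2. Srrm2, of the spliceosome, stood at 0.117 and Taf1d, of the RNA polymerase I machinery, at 0.102. The mitochondrial protein Chchd5 stood at 0.143 and Slc25a3, the phosphate carrier, at 0.104. Slc25a3 lay between 0.0971 and 0.138 on the 4 arrays, and it and Vwa8 had the narrowest ranges of the 12 higher genes. Both are averages of several features, which spread more widely. As deposited, those of Slc25a3 ran from -0.0948 to 0.361 on N3_H 1 and those of Vwa8 from -0.125 to 0.329 on H_N3 2.

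The locus 1700088E04Rik, known by a clone name only, stood at 0.163 on H_N3 1, 0.120 on H_N3 2, 0.145 on N3_H 1 and 0.0141 on N3_H 2. After the dye effect was removed, day 3 was higher on all 12 arrays that hold a day 3 animal. As deposited, the locus stood at -0.00935 on N3_H 2, and these arrays are part of the fit that ranked it. Its log ratio against hypoxia was 0.103 ± 0.0238 (SE, adjusted p = 0.178, limma), and it lay below that at day 7: day 7 minus day 3 was -0.158 ± 0.0255 (SE, adjusted p = 0.0123). This was one of 3 entries past the threshold between days 7 and 3 (0.00979%). That count was 0 without array N3_N7 2 or N7_N3 1 (which pair day 3 with day 7), 1 without N3_N7 1, N7_H 2 or N3_H 1, and 6 without H_N3 1.

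**Figure D2:**
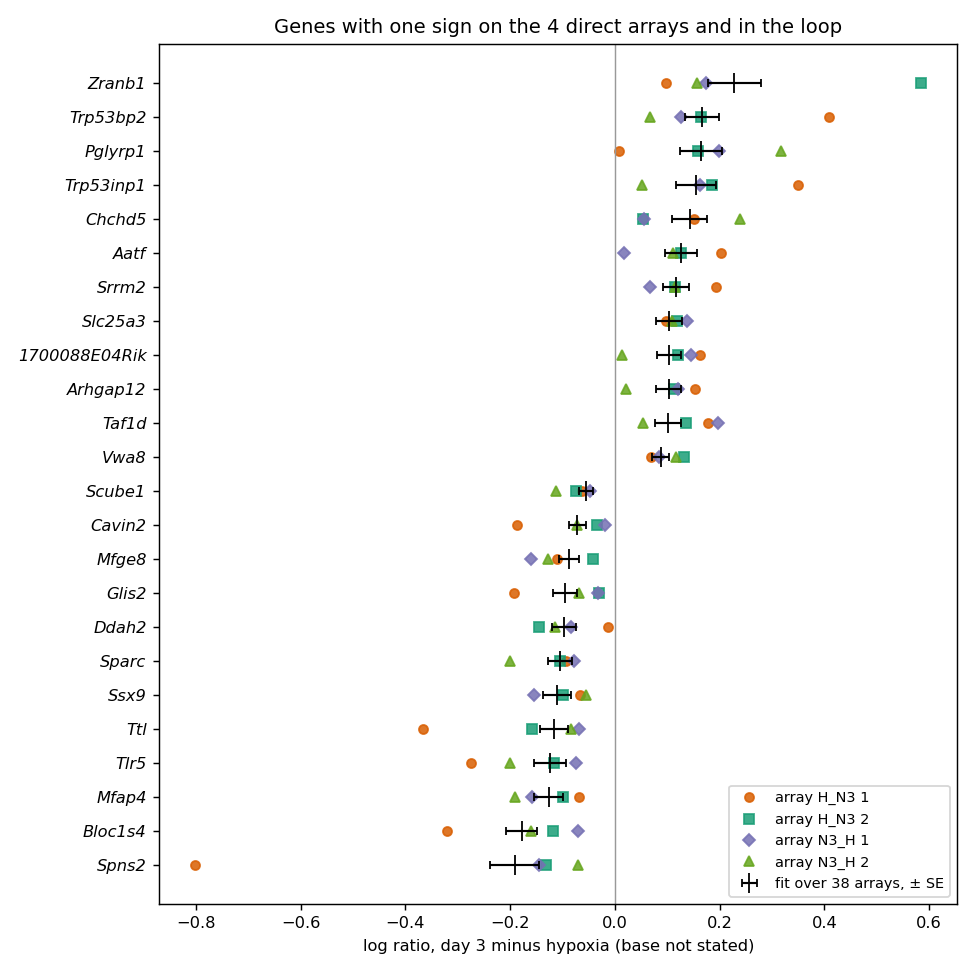
Log ratio of day 3 minus hypoxia on each of the 4 direct arrays (coloured symbols) and in the fit over 38 arrays (black, ± SE) for the 12 higher and 12 lower genes with one sign on all direct arrays and in the rest of the loop. Slc25a3 and Vwa8, each an average of several features, have narrow ranges, while 1 array stands far from the others for Zranb1 and Spns2.

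The lower genes include Mfap4 and Sparc, both of the matrix. Mfap4, a microfibril-associated glycoprotein that binds elastic fibres, stood at -0.0680 on H_N3 1, -0.0987 on H_N3 2, -0.159 on N3_H 1 and -0.190 on N3_H 2. All 4 lay below 0, and H_N3 1 was closest to it. Its fitted log ratio was -0.127 ± 0.0277 (SE, adjusted p = 0.178, limma) at day 3, beside -0.0743 at day 1, -0.121 at day 7 and -0.126 at day 14. On arrays of other animals Mfap4 had been higher in hypoxia than in normoxia by 0.151 ± 0.0285 (SE, adjusted p = 0.00223), and day 3 stood 0.0248 from normoxia.

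Sparc, a matricellular protein that binds collagen, stood at -0.0927 on H_N3 1, -0.105 on H_N3 2, -0.0790 on N3_H 1 and -0.201 on N3_H 2. All 4 were below 0, with N3_H 2 lowest. Its fitted value was -0.105 ± 0.0224 (SE, adjusted p = 0.168, limma) at day 3, and at day 7 it stood at -0.127 (adjusted p = 0.0164). Sparc stood below day 1 on 4 of 4 arrays and above day 7 on 4 of 4. Mfge8, a secreted protein that links dying cells to phagocytes and is abundant in arterial walls, stood at -0.0876, between -0.160 and -0.0412 on the direct arrays. It was higher in hypoxia than in normoxia by 0.0686 (adjusted p = 0.0343).

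The lowest fitted value of the 24 was that of Spns2. This gene, the endothelial exporter of sphingosine phosphate, stood at -0.192 in the fit, with -0.801 on H_N3 1 and between -0.144 and -0.0710 on the other 3 arrays. Without H_N3 1 Spns2 stood at -0.107. Ddah2, a relative of the enzyme that degrades an inhibitor of nitric oxide synthase, stood at -0.0978 and Cavin2, a coat protein of caveolae, at -0.0717. Tlr5, the receptor for flagellin, stood at -0.124, Ttl, the tubulin tyrosine ligase, at -0.116, Glis2, a zinc finger factor, at -0.0954 and Scube1, a secreted protein of endothelium and platelets, at -0.0554. Ttl was -0.367 on H_N3 1 and between -0.158 and -0.0684 on the others, and Ssx9 stood at -0.111. Of the 24 genes 12 had more than 1 feature, and for 2 of these, the higher genes Arhgap12 and Taf1d, the features disagreed in sign. Their feature averages on the direct arrays ran from -0.0479 to 0.224 for Arhgap12 and from -0.00146 to 0.279 for Taf1d.

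**Figure D3:**
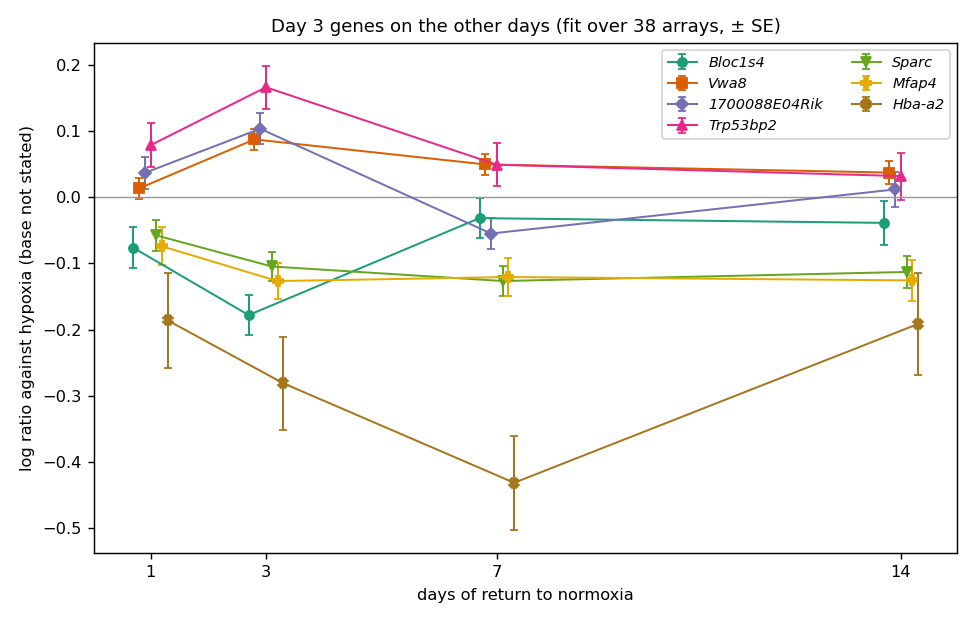
Fitted log ratio against hypoxia (± SE, 38 arrays) after 1, 3, 7 and 14 days of normoxia for 7 genes, with points shifted sideways so that they can be told apart. All days share the hypoxia animals of the fit, Sparc and Mfap4 stay below 0 from day 1 to day 14, and Bloc1s4 and Trp53bp2 are farthest from 0 at day 3.

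The direct arrays and the remaining 34 arrays hold different animals and gave separate estimates of day 3 minus hypoxia. Across the 30653 entries these 2 estimates had r = 0.0126, and 51.2% of entries had the same sign, a description over entries that share arrays and processing. The same figures were r = -0.111 and 48.4% for day 1 and r = 0.00109 and 49.8% for day 7. The direct arrays correlated with each other at r from -0.0174 to 0.175. The 2 estimates were tested against each other with an added term, and 0 entries (0%) differed after adjustment (limma), beside 2792, or 9.11%, under an unadjusted p of 0.05. In limma fits of either set alone 0 entries passed, with 1998 under an unadjusted p of 0.05 in the 4 direct arrays and 2398 in the other 34.

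**Figure D4:**
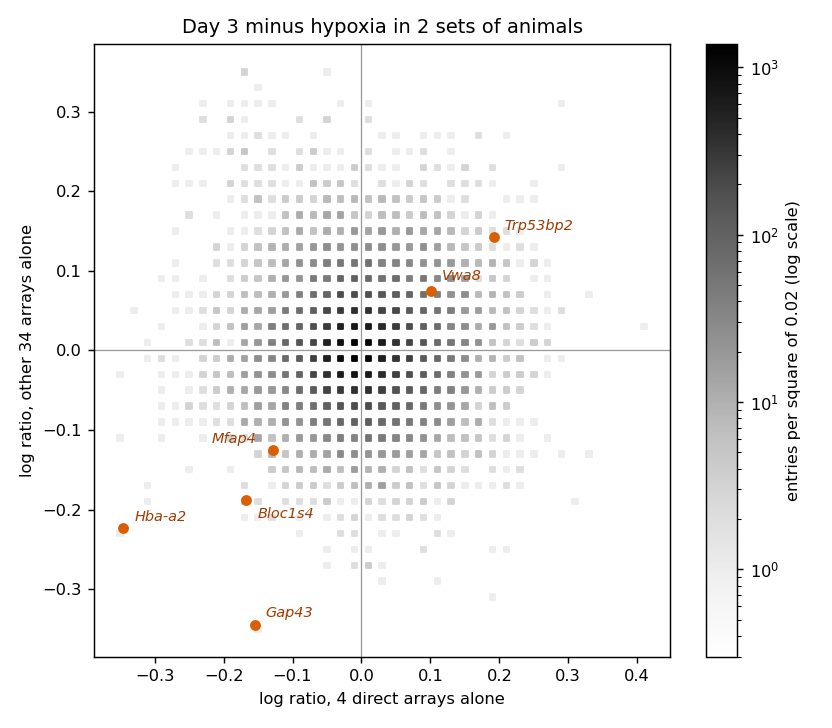
Day 3 minus hypoxia from the 4 direct arrays (horizontal) against the other 34 arrays (vertical), as the number of entries per square of 0.02 on a log grey scale, with 6 genes marked. The cloud is round (r = 0.0126), and Bloc1s4 stands at -0.167 and -0.188, Vwa8 at 0.100 and 0.0752.

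Day 3 was also set against its neighbouring days within the loop. Between day 3 and day 1, 0 entries passed (0%, limma), with 1418 (4.63%) under an unadjusted p of 0.05. The 4 entries called against hypoxia were thus not shown to differ between day 3 and day 1.

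Array H_N3 1 stood apart from the other direct arrays. Its log ratios had an SD of 0.165, the second highest of all 38 arrays, beside 0.117, 0.115 and 0.106. Before the dye term was removed, the mean over 27 alveolar markers (type 1 and type 2 cells) was 0.0584 there and -0.0250, -0.0326 and -0.0377 on H_N3 2, N3_H 1 and N3_H 2, and the mean over contractile smooth muscle genes was 0.0672 beside -0.0262, -0.0391 and -0.0508. After its removal, heart muscle genes, which mouse pulmonary veins express in their muscle sleeve, averaged 0.239 beside -0.0173, 0.00847 and 0.0713, with Tnni3, cardiac troponin I, at 0.710. The median of the heart muscle list was 0.0287 in the fit. Without this array 0 entries passed the threshold (limma), with 2278 under an unadjusted p of 0.05. The part of its tissue makeup in the results was not tested.

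With each array's alveolar score as a covariate 70 entries passed the threshold (0.228%), 27 higher and 43 lower, among them the 4 called without it. Named genes made up 36 of them, 20 higher and 16 lower. The count was 0 without H_N3 1 (with 3104 under an unadjusted p of 0.05), 7 without H_N3 2, 8 without N3_H 1 and 80 without N3_H 2. A group of 10 unnamed features with nearly equal values on every array (lowest r between them 0.992) were all among the 70 and are not separate evidence.

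With that covariate the higher genes of smallest p included Nudt3, which hydrolyses inositol pyrophosphates, at 0.199 ± 0.0336 (SE, adjusted p = 0.0190, limma). Its direct values were 0.428 on H_N3 1, 0.147 on H_N3 2, 0.205 on N3_H 1 and 0.157 on N3_H 2, all above 0. Trp53bp2 rose by 0.183, Ccnt2, a cyclin of the transcription elongation factor P-TEFb, by 0.127 and Srrm2 by 0.126. Snrnp70, the U1 spliceosomal protein, rose by 0.0981 and Cdc37l1, a co-chaperone of Hsp90, by 0.101.

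The lower ones under the covariate included Cd34, a sialomucin of endothelium and progenitor cells, at -0.107 ± 0.0207 (SE, adjusted p = 0.0209, limma). Cd34 was -0.217 on H_N3 1, -0.0454 on H_N3 2, -0.131 on N3_H 1 and -0.131 on N3_H 2, with none above 0. Ttl fell by 0.137, Tlr5 by 0.144, Mfge8 by 0.0917 and Pdlim4, an actin-binding LIM protein, by 0.0924. Barhl2, a homeobox factor, fell by 0.0663, and the locus 2700046G09Rik by 0.215. Without the covariate, Pdlim4 lay above 0 on N3_H 2, at 0.0678, and 2700046G09Rik on N3_H 1, at 0.0516. Cd34 without the covariate stood at -0.0827 with an adjusted p of 0.272.

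Among 41 gene lists, with 704 of 755 members measured, Bloc1s4 and Vwa8 were the only members past the threshold. The medians of the lists ran from -0.0265 to 0.0465, and 30 lay below 0, beside a median of -0.00108 over all entries, of which 14846 were higher and 15807 lower. The mean of a list was below 0 on all 4 direct arrays for 8 lists and above 0 on all 4 for 1. The share of a list under an unadjusted p of 0.05 ran from 4% to 42.9%, beside 9.22% of all entries. All values that follow are from members that did not pass.

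Red cell genes stood mostly below 0. Of 13 measured members, 12 were lower, with a median of -0.0248, and their mean was -0.0122 on H_N3 1, -0.123 on H_N3 2, -0.125 on N3_H 1 and -0.165 on N3_H 2. Hba-a2, an alpha globin gene, stood at 0.0790 on H_N3 1, -0.507 on H_N3 2, -0.290 on N3_H 1 and -0.664 on N3_H 2, so 3 arrays were far below 0 and H_N3 1 was above it. The fit gave Hba-a2 -0.281 ± 0.0700 (SE, adjusted p = 0.180, limma), a 1.91-fold difference in base 10 or 1.22-fold in base 2. Without H_N3 1 Hba-a2 stood at -0.331 (adjusted p = 0.211).

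The neighbouring alpha globin gene Hba-a1 stood at -0.234 and the beta globin gene Hbb-bt at -0.179. The paralogues Hba-a1 and Hba-a2 are nearly identical in sequence, and their probes may share signal. Against day 1 animals Hba-a2 at day 3 stood at 0.00633 ± 0.167 (SD, n = 4) and against day 7 at 0.113 ± 0.201 (SD, n = 4), with 6 of 12 arrays above 0. By day 7 Hba-a2 had fallen, to -0.431 against the hypoxia animals (adjusted p = 0.0161, limma). Red cells left in the lumen of dissected vessels would carry these transcripts, and their part was not tested.

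The contractile apparatus of smooth muscle showed no common direction. Of 21 measured genes 8 were higher and 13 lower, with a median of -0.0147. Myl9, the regulatory myosin light chain, stood at -0.0217, -0.139, -0.111 and -0.184 on H_N3 1, H_N3 2, N3_H 1 and N3_H 2, all below 0, and at -0.0714 in the fit (adjusted p = 0.344, limma). Cnn1, calponin, stood at -0.0728 and the intermediate filament protein Synm at -0.0854. Myocd, the coactivator that drives contractile genes, stood at 0.0824 and above 0 on all 4 arrays. Of 12 pericyte and mural genes 8 were lower, with Pdgfrb, the receptor that recruits mural cells, at -0.0799 and Higd1b at -0.133, while Kcnj8, a subunit of ATP-sensitive potassium channels, stood at 0.0665. Under an unadjusted p of 0.05 lay 1 of the higher and 4 of the lower ones (41.7%, beside 9.22% of all entries). The mean of the list was -0.0740 on H_N3 1, 0.00709 on H_N3 2, 0.0173 on N3_H 1 and -0.0163 on N3_H 2.

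Endothelial genes were 8 higher and 12 lower of 20, with a median of -0.00808. Nos3, the endothelial nitric oxide synthase, stood below 0 on all 4 arrays, from -0.105 to -0.0400, and at -0.0471 in the fit (adjusted p = 0.479, limma). Cldn5, of endothelial tight junctions, stood at 0.0715. Among 7 lymphatic genes Lyve1 stood at 0.0908 and Pdpn, also made by alveolar type 1 cells, at -0.139. Of 25 vasoactive genes 12 were higher and 13 lower. Ece1, which activates endothelin, stood at 0.0564 and Ptgis, prostacyclin synthase, at -0.0620.

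Matrix lists had more members below 0 than above it. Elastic fibre genes were 5 higher and 9 lower of 14, and their mean was -0.0368 on H_N3 1, -0.0704 on H_N3 2, -0.0267 on N3_H 1 and -0.0577 on N3_H 2. Under an unadjusted p of 0.05 lay 3 members, all lower (21.4%, beside 9.22% of all entries). Beside Mfap4, the list held Loxl1, a crosslinker of elastin, at -0.129 and Mfap5 at -0.127, both below 0 on all 4 arrays, while Lox, the collagen and elastin crosslinker, stood at 0.0787 with -0.0974 on N3_H 2. Mfap5 was -0.573 on H_N3 1 and between -0.192 and -0.0521 on the others. Eln, the gene of elastin itself, stood at 0.00575 in the fit (adjusted p = 0.984, limma). Its mean on the direct arrays was -0.103, while the rest of the loop gave 0.104, so these estimates of Eln had opposite signs.

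Basement membrane genes were 5 higher and 12 lower of 17, with a median of -0.0265 and means below 0 on all 4 direct arrays, from -0.0588 to -0.00459. Under an unadjusted p of 0.05 lay 3 members, all lower (17.6%, beside 9.22% of all entries). Col15a1 stood at 0.000715 on H_N3 1, -0.108 on H_N3 2, -0.300 on N3_H 1 and -0.149 on N3_H 2, and at -0.131 in the fit. Col18a1, the source of endostatin, stood at -0.0565, and between -0.123 and -0.0921 on the 4 arrays. Of 19 fibrillar collagen and matricellular genes 8 were higher and 11 lower. Col1a1 stood at -0.0977 and Col3a1 at -0.0594. Of 22 proteases and inhibitors 9 were higher and 13 lower, with Mmp3, stromelysin, at 0.0732, Timp2, an inhibitor of metalloproteinases, at -0.0632 and Ctsb, cathepsin B, at -0.0601.

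Growth factors of the wall were 10 higher and 12 lower of 22, with 4 under an unadjusted p of 0.05 (18.2%, beside 9.22% of all entries), all lower. Pdgfb, which drives smooth muscle growth, stood at -0.0622 on H_N3 1, -0.0924 on H_N3 2, -0.127 on N3_H 1 and -0.0122 on N3_H 2, all below 0, and at -0.0905 in the fit (adjusted p = 0.282, limma). Igf1 stood at -0.136, also below 0 on all 4 arrays, and Angpt1, a ligand of the endothelial receptor Tie2, at -0.0865. In the BMP and TGF-beta pathway, whose BMP receptor arm is mutated in heritable pulmonary hypertension in humans, 14 of 25 genes were higher and 11 lower. Tgfb2 stood at -0.115, below 0 on all 4 arrays, and the receptor Bmpr1a at 0.0590.

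Targets of hypoxia inducible factors had no common direction, with 11 higher and 14 lower of 25 and a median of -0.00725. Ddit4, an inhibitor of mTOR induced by hypoxia and by other stresses, stood at 0.245, 0.122, 0.0543 and 0.00874 on H_N3 1, H_N3 2, N3_H 1 and N3_H 2, all above 0, and at 0.143 in the fit (adjusted p = 0.368, limma). Aldoa, aldolase A, stood at -0.0411, below 0 on all 4 arrays. Slc2a1, the glucose transporter GLUT1, stood at -0.0905, with -0.560 on H_N3 1 and between -0.0209 and 0.0727 on the others. Glycolysis genes were 8 higher and 8 lower of 16, and respiratory chain genes 13 higher and 9 lower of 22.

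**Figure D5:**
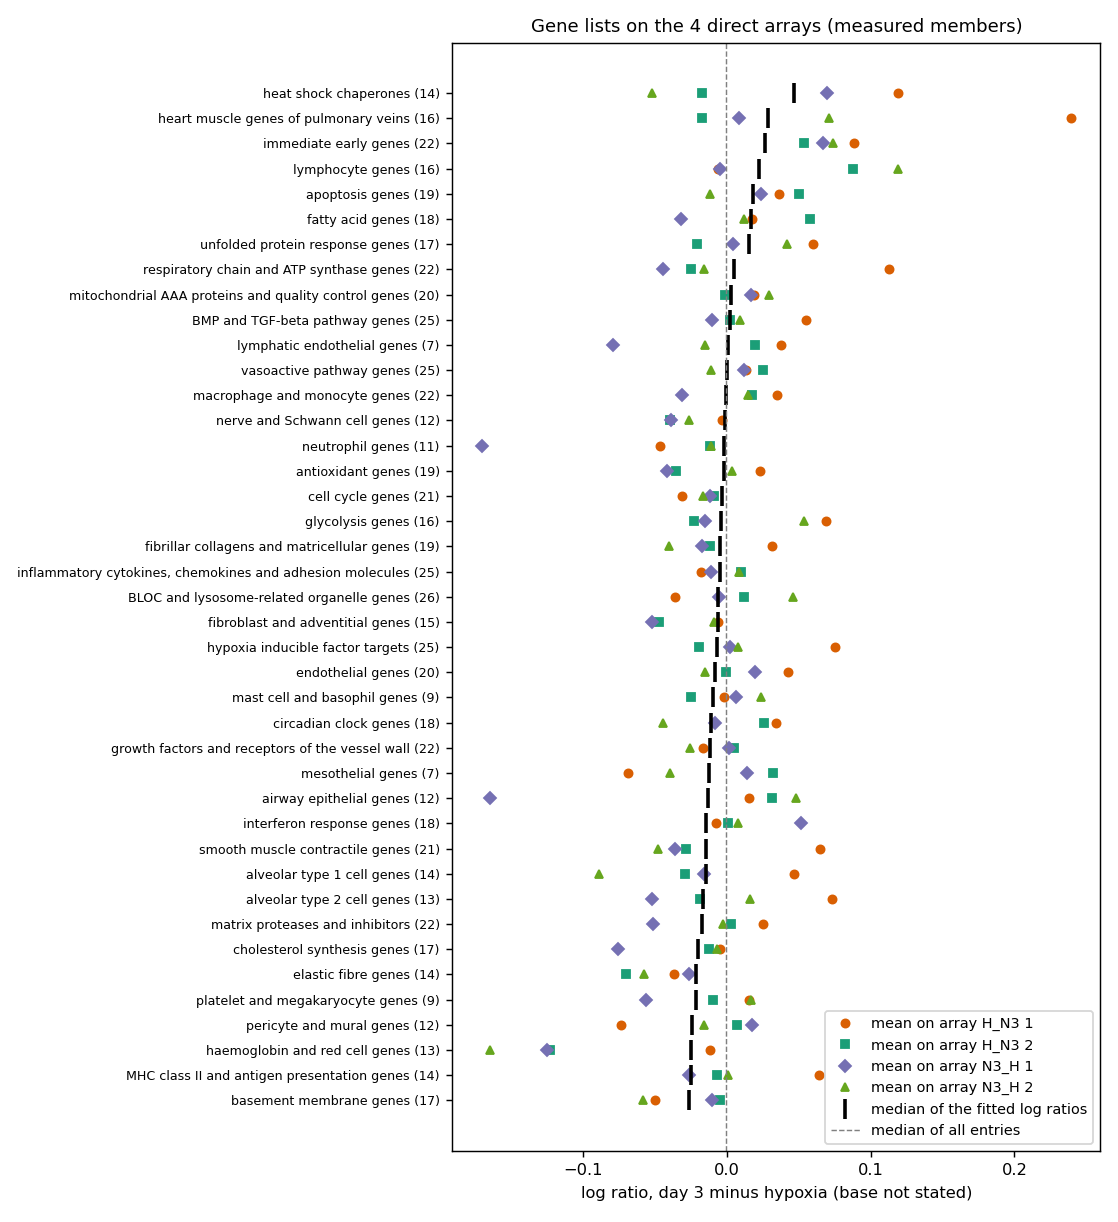
Mean log ratio of the measured members of each list (number in brackets) on the 4 direct arrays (symbols) and the median of the fitted values (black bar), ordered by that median. Array H_N3 1 is far to the right for heart muscle genes at 0.239, and red cell genes lie between -0.165 and -0.123 on the other 3 arrays.

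Heat shock, immediate early and unfolded protein response genes had more members above 0 than below it, and antioxidant genes did not. Heat shock chaperones were 13 higher and 1 lower of 14, with a median of 0.0465, the highest of the lists, and 6 under an unadjusted p of 0.05 (42.9%, beside 9.22% of all entries), all higher. Their mean was 0.119 on H_N3 1, -0.0176 on H_N3 2, 0.0693 on N3_H 1 and -0.0523 on N3_H 2, so the direct arrays disagreed in sign, and the median in the other 34 arrays was 0.0752. Hsph1 stood at 0.143, Hspa1a, the inducible Hsp70, at 0.135 and Hspa5, the chaperone of the endoplasmic reticulum, at 0.0674.

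Immediate early genes, which respond within minutes to growth factors, stretch and tissue handling, were 16 higher and 6 lower of 22. Theirs was the only list with a mean above 0 on all 4 arrays: 0.0885, 0.0538, 0.0666 and 0.0740 on H_N3 1, H_N3 2, N3_H 1 and N3_H 2. The median in the other 34 arrays was -0.0125. Under an unadjusted p of 0.05 lay 2 members, both higher (9.09%, beside 9.22% of all entries). Egr1 stood at 0.592 on H_N3 1, 0.175 on H_N3 2, 0.143 on N3_H 1 and 0.182 on N3_H 2, and at 0.175 in the fit (adjusted p = 0.323, limma). Without H_N3 1 Egr1 stood at 0.117. Nr4a2 stood at 0.0764 and Zfp36, which destabilises cytokine transcripts, at 0.0688.

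Cell cycle genes were 8 higher and 13 lower of 21. Under an unadjusted p of 0.05 lay 2 of the higher and 4 of the lower ones (28.6%, beside 9.22% of all entries). Rrm2, a subunit of ribonucleotide reductase, stood at -0.652 on H_N3 1 and between -0.212 and -0.0717 on the others, all below 0, and at -0.199 in the fit (adjusted p = 0.240, limma). Of the replication helicase, Mcm3 stood at -0.0705 and Mcm6 at 0.0646. Cholesterol synthesis genes were 4 higher and 13 lower of 17, with Msmo1 at -0.0900 and Sc5d at -0.0863. Of 18 fatty acid genes 12 were higher, with the fatty acid receptor Cd36 at 0.0669 and above 0 on all 4 arrays, while the lipid chaperone Fabp5 stood at -0.164.

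Leukocyte lists had medians near that of all entries or below it, except lymphocytes. Lymphocyte genes were 12 higher and 4 lower of 16. Ms4a1, the B cell antigen CD20, stood at 0.0703 and Cd3e, of the T cell receptor, at 0.0501, both above 0 on all 4 arrays. The mean of the lymphocyte list was -0.00651 on H_N3 1, 0.0874 on H_N3 2, -0.00498 on N3_H 1 and 0.119 on N3_H 2. The direct arrays thus disagreed in sign, and the median of this list in the rest of the loop was 0.000144. Under an unadjusted p of 0.05 lay 6.25% of the list, beside 9.22% of all entries. Macrophage and monocyte genes were 11 higher and 11 lower of 22, and Lyz2 stood at -0.0592. Antigen presentation genes were 3 higher and 11 lower of 14, with Ciita, their class II regulator, at -0.0627. Icam1, which binds leukocytes to endothelium, stood at -0.0581 and below 0 on all 4 arrays.

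Interferon response genes were 6 higher and 12 lower of 18, with Ifit1 at 0.0948, Ifit2 at 0.0753 and Gbp3 at -0.138. Under an unadjusted p of 0.05 lay 2 of the higher and 2 of the lower ones (22.2%, beside 9.22% of all entries). Both Ifit genes, which restrain viral RNA, lay above 0 on all 4 direct arrays. Cytokines, chemokines and adhesion molecules were 10 higher and 15 lower of 25, neutrophil genes 4 higher and 7 lower of 11, mast cell genes 2 higher and 7 lower of 9, and platelet genes 3 higher and 6 lower of 9. Itga2b, a subunit of the platelet receptor for fibrinogen, stood at -0.0433, below 0 on all 4 arrays. Unfolded protein response genes were 11 higher and 6 lower of 17, antioxidant genes 9 higher and 10 lower of 19, and clock genes 7 higher and 11 lower of 18. Xbp1, a transcription factor of the unfolded protein response, stood at 0.0884, with 0.361 on H_N3 1, and Clock at 0.0512, above 0 on all 4 arrays.

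Of the lists of tissue beside the vessels, alveolar and airway genes lay mostly below 0 in the fit, while 11 of 16 heart muscle genes were above it and 5 below. Alveolar type 1 genes were 2 higher and 12 lower of 14 and type 2 genes 4 higher and 9 lower of 13, with Ager at -0.108, Emp2 at -0.0627 and the surfactant protein gene Sftpd at -0.0393. Airway genes were 3 higher and 9 lower of 12, with Foxj1, of ciliated cells, at 0.149 and Scgb1a1, of club cells, at 0.0476, while Reg3g, an antimicrobial lectin, stood at -0.107 and Scgb3a1, a secretoglobin, at -0.109. On N3_H 1 alone Reg3g was -0.749 and Scgb3a1 -0.519. Gap43, a growth cone protein of axons, stood at 0.173 on H_N3 1, -0.237 on H_N3 2, -0.130 on N3_H 1 and -0.425 on N3_H 2. Its fitted value of -0.255 ± 0.0662 (SE, adjusted p = 0.206, limma) came with -0.344 in the other 34 arrays.

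The direct arrays were also read for what hypoxia had changed. Between hypoxia and normoxia, measured on 8 arrays of other animals, 1102 entries differed (3.6%), 413 higher and 689 lower in hypoxia. Markers of neighbouring tissue moved with that difference: the median of hypoxia minus normoxia was 0.105 for alveolar type 1 and 0.0967 for type 2 genes, beside -0.00397 for all entries, and their part in it was not tested. Of the 413, 58 (14.0%) were higher at day 3 than in hypoxia on all 4 direct arrays and 31 (7.51%) lower. Of the 689, 27 (3.92%) were higher on all 4 and 215 (31.2%) lower. Both sets thus had more members on the side away from normoxia than on the side towards it, beside 7.62% higher and 9.20% lower among all entries. The median of the 689 was below 0 on each direct array, from -0.0488 to -0.00870, and that of the 413 ran from -0.000862 to 0.0470. No test was made of this count, since entries are not replicates, and the dye term is shared by both comparisons. Mfap4 and Mfge8 were among the genes on the side towards normoxia.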

How the data were processed

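Deposited log ratios of 38 Agilent arrays with 2 channels were used, 1 value per feature. Per the submitters' processing notes the authors used limma, without a version; how background and normalization were handled is not given in the sources used here. Small deposited values (largest 1.12, median SD per array 0.114) led to their reading as log10 ratios, which does not settle the base. Test results are the same in either base. No brightness, slide or scan date was used here, so dim features were kept and batches not tested. Precision is limited by the number of arrays.

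Of 45220 features 2 with missing values were left out. Platform annotation, which can be old, gave 1 symbol for 33653 features, several for 56 and none for 11511; features of a gene were averaged (8343 genes had more than 1). The fit (limma 3.58.1, R 4.3.3, lmFit with eBayes) took 38 arrays, an intercept for the dye and 5 condition terms against hypoxia. It left 32 residual degrees of freedom, and the residual SD had a median of 0.0821. Each p was two-sided and adjusted by Benjamini-Hochberg over 30653 entries, with a threshold of 0.05. Values on an array are the log ratio less the fitted dye term, turned to day 3 minus hypoxia.

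Named were genes past the threshold; the 12 in each direction of smallest p with one sign on the direct arrays and in the other 34; up to 4 genes of each list by p; and up to 8 in each direction past the threshold with the alveolar score. Eln, the gene of elastin itself, was added and is outside the gene counts of the closing section. The members, lists and tests were chosen with earlier results of these data known. Alternatives are in the closing section. The steps were also run on simulated data with independent noise for each entry and array. Such data cannot show how differences shared by the entries of an array affect the calls.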

Additional observations from a re-analysis of the deposited data

Results flagged for a closer look

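Of 184 genes described or ranked, 10 had 1 direct array far from the other 3 (gap over range above Dixon's critical value), where chance gives about 1 group in 20, and for 7 of the 10 it was H_N3 1. The far value was -0.801 for Spns2, -0.560 for Slc2a1, 0.592 for Egr1, -0.636 for the clock gene Npas2, 0.194 for the co-chaperone Bag3, 0.193 for Ccnt2 and 0.0617 for the glycolytic Pgam1. On H_N3 2 it was 0.585 for Zranb1 and 0.0539 for Fdps, of sterol synthesis, and on N3_H 1 it was 0.218 for Ms4a1.

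The step from day 3 to day 7 stood out for 1700088E04Rik, where day 7 minus day 3 was -0.158 and passed the adjusted threshold (limma).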

How the results depend on the processing

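The 4 calls of day 3 against hypoxia were 3 to 6 in the settings not named here. They became 2 with arrays scaled to a common spread, 2 with single-symbol entries only and 1 with the red cell score. Calls rose to 70 with the alveolar score and were 0 with array weights, the 4 direct arrays alone (1998 under an unadjusted p of 0.05), the other 34 alone (2398) or the arrays of day 3 and of days 1 and 7 with hypoxia. Leaving out 1 array gave 0 to 8 calls: 0 without H_N3 1, 1 without N3_H 1 and 8 without H_N14 3. With the replicate number as a block, 2 calls remained, both among the 4; the numbers do not pair the arrays (residuals of the fit correlated at r 0.0209 and 0.106 between direct arrays of one number, -0.0579 and 0.177 between different numbers). With the alveolar score, leaving out a direct array gave 0 to 80 calls.

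Day 3 minus day 1, with 0 calls, had 1 with single features, 10 with array weights and 3 in the other 34 arrays alone. Day 7 minus day 3, with 3, had 10 with single features, 6 with the feature of largest SD, 7 in the other 34 arrays, 1 with single-symbol entries or the red cell score, and 0 with scaling, array weights, the alveolar score or the arrays of day 3 and of days 1 and 7 with hypoxia; leaving out 1 array gave 0 to 6. The direct arrays against the loop had 0 calls, and 0 to 1 with a direct array left out.

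Bloc1s4 passed 12 of 16 other settings and 37 of 38 with an array left out (-0.202 to -0.156). Vwa8 passed 7 of 16 and 19 of 38 (0.0752 to 0.110). Of 7281 values of 135 genes, 7278 kept their sign. The 3 that turned were Npas2 at 0.0244 in the other 34 arrays alone and 0.00923 without H_N3 1 (-0.0916 to 0.00923 with any array left out), and Hbb-bt at 0.0413 with the red cell score, which contains it. The causes were not tested. Chosen after seeing the data were the near-equal unnamed features as 1 entry (4 calls), the alveolar count without each direct array, and the alternatives for day 3 against days 1 and 7.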
